A study of Mus musculus with 4 samples.

Results

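The mRNAs described here, apart from Prm3, encode proteins that package the chromatin of male germ cells. The set holds the protamine mRNAs Prm1, Prm2 and Prm3 (a protamine by name) and the transition protein mRNAs Tnp1 and Tnp2. It also holds the spermatid linker histone mRNAs Hils1 and H1fnt, and the testis histone mRNAs Hist1h1t, Hist1h2ba and Hist1h2aa. These 10 members were chosen by name, as 10 of the 50600 gene models counted. The rule used no measured value, but earlier results of these data were known when it was made. Protamines and transition proteins together are called late here (5 mRNAs), and the 3 testis histones made from meiosis onwards are called early. The 2 linker histones of spermatids were kept apart from both.

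There were 2 groups of 2 libraries from testes of C57BL/6 mice aged 8 weeks. One group was pulled down with an antibody to LARP7, the other with IgG, and no group differed in genotype or treatment. RNA immunoprecipitation (RIP) uses a bead-bound antibody to take a protein with its RNAs out of a tissue lysate, and IgG measures what sticks without that antibody. LARP7, of the La-related family, binds 7SK and U6 RNA. The comparison asks which RNAs made up more, or less, of a library with the LARP7 antibody than with IgG, once libraries were scaled.

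During meiosis, spermatocytes replace part of their somatic histones with testis variants. Round spermatids then transcribe the transition protein and protamine genes, store the mRNAs in a repressed form, and translate them in elongating spermatids. There the transition proteins displace most histones and the protamines take their place, which compacts the sperm nucleus.

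Libraries held 4411271 to 6994514 expected counts, an estimated count per gene model that need not be whole. Replicates were distinct libraries, but the labels do not say whether they came from separate animals, so p-values cover only the spread between these libraries. Models annotated as protein-coding took 14.9% and 20.4% of counts in the LARP7 libraries, against 42.3% and 38.3% in the IgG libraries. Rn7sk, the 7SK RNA, took 4.58% and 14.3% in the LARP7 libraries, against 0.552% and 1.40% in the IgG libraries. The scaling between groups therefore bears on every fold change. TMM scaling, which assumes that most genes do not change, gave a median log2 fold change of -0.05 over the 12234 genes tested, and scaling by library totals gave -1.47. Fold changes below are LARP7 over IgG with TMM unless another scaling is named. Calls rest on edgeR's quasi-likelihood test with Benjamini-Hochberg adjustment over all 12234 genes and a threshold of 0.05. Markers of spermatocytes (9 of 9 listed), of round spermatids (7 of 7) and of elongating spermatids (10 of 10) were above 0 in every library. The stages that make, store or translate these mRNAs were thus represented in the tissue.

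Inserts were selected for 15 to 300 nt, and the member gene models measure 384 nt (Hist1h2ba) to 1326 nt (H1fnt), so the counts come from fragments of these mRNAs. In a library from whole tissue, fewer cells of a type and less RNA per cell cannot be told apart. The fold changes compare antibodies, so they are differences in the share of RNA pulled down and not between tissues.

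In the GRCm38.p6 assembly, RefSeq places 4 of the late genes in a cluster of 8889 nt at chr16:10787935-10796823, all on the minus strand. From the cluster's upstream end these are Prm1 (chr16:10796332-10796823), Prm2 (chr16:10791377-10792105), Prm3 (chr16:10790508-10790914) and Tnp2 (chr16:10787935-10788655). Tnp1 lies at chr1:73015074-73015899, also on the minus strand. Hist1h1t (H1f6 in RefSeq) lies in the main histone cluster at chr13:23695811-23696545. Hist1h2ba (H2bc1, chr13:23933725-23934156) and Hist1h2aa (H2ac1, chr13:23934437-23934913) are transcribed away from each other, with 280 nt between their starts. Both overlap the RefSeq long non-coding RNA gene Gm33516, which the files do not list under that symbol, so reads of the genes there cannot be assigned further. Hils1 (chr11:94967593-94968456) lies inside the span of Sgca, a muscle sarcoglycan gene with 6 and 11 counts in the LARP7 libraries and 21 and 15 in the IgG libraries. H1fnt (H1f7) lies at chr15:98255982-98257307. 6 members matched RefSeq by symbol and 4 by synonym.

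The 150 bases before the annotated start of the late and early genes are shown because these are the sets set against each other. They were read from RefSeq promoters of GRCm38.p6, 5′ to 3′ on the strand of the gene. Capitals mark 3 motifs searched on both strands: TGANNTCA (the core of the cAMP response element and its variants, which the spermatid activator CREM binds), CCAAT (and its complement ATTGG), and TATAA (and TTATA). The windows are chr16:10796824-10796973, chr16:10790915-10791064, chr1:73015900-73016049, chr16:10792106-10792255 and chr16:10788656-10788805 on the minus strand for the late genes, then chr13:23695661-23695810 (plus), chr13:23934157-23934306 (minus) and chr13:23934287-23934436 (plus) for the early genes. The last 2 windows share their outermost bases.
Prm1: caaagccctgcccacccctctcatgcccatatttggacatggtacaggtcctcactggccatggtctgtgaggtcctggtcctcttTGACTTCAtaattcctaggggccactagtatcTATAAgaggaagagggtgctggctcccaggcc
Prm3: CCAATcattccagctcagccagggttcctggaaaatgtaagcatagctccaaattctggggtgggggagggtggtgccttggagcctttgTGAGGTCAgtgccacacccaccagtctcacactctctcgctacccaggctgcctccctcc
Tnp1: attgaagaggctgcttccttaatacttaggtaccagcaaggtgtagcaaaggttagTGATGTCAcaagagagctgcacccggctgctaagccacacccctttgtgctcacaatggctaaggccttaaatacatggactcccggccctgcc
Prm2: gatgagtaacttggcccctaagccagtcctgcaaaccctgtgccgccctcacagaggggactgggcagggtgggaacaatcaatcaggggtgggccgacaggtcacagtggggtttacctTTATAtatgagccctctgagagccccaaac
Tnp2: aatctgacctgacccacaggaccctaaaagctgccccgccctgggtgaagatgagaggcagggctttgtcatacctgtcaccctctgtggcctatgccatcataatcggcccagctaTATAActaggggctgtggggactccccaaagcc
Hist1h1t: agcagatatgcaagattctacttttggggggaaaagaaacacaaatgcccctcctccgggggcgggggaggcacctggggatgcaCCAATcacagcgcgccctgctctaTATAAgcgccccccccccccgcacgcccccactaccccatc
Hist1h2ba: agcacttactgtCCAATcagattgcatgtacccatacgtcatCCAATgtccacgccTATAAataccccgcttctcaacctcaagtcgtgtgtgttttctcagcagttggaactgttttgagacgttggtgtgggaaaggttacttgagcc
Hist1h2aa: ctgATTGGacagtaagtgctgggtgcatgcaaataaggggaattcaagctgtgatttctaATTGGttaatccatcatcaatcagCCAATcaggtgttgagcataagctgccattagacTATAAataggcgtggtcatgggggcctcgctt

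TGANNTCA was found in the windows of 3 of 5 late genes: Prm1 (TGACTTCA, starting 64 bases before the start), Prm3 (TGAGGTCA, 60 bases before) and Tnp1 (TGATGTCA, 94 bases before). It was found in 0 of 3 early and 0 of 2 linker histone windows. Of 32851 RefSeq promoter windows of the same length, 8.37% held it. CCAAT was found in all 3 early windows, in 1 of 5 late windows (Prm3) and in 0 of 2 linker histone windows, against 24.5% of all windows. TATAA was found in 3 late windows (Prm1, Prm2 and Tnp2), all 3 early windows and 0 of 2 linker histone windows, against 14.2% of all. A match of letters is a description of the sequence, not of binding.

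All 10 members passed the filter on low counts. With TMM scaling, 3 of them were lower with LARP7 than with IgG: Prm1, Tnp2 and Hils1. Lower means relative to the other genes tested, since counts give shares of a library and not amounts recovered. Among all genes tested, 9.69% were lower, and 14.5% were higher. The other late mRNAs and H1fnt had negative fold changes that missed the threshold, and the 3 early histone mRNAs had positive ones that also missed it, so 0 members were called higher. At an unadjusted p under 0.05, 7 members were lower (the 5 late and both linker histone mRNAs) and 2 were higher (Hist1h1t and Hist1h2aa), against 18.2% lower and 20.9% higher among all genes at that p. DESeq2 called 5 lower and 0 higher, against 6.26% lower and 13.7% higher of 10438 genes. On the TMM-scaled CPM scale (counts per 1000000), both LARP7 libraries lay below both IgG libraries for these 7, as for 35.6% of all genes tested. They lay above for Hist1h1t and Hist1h2aa, as for 32.9% of genes.

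Fits that leave out 1 library set 2 libraries against a lone one, whose spread is assumed to be that of the other group, so their p-values are given as values and not as support for a call. Calling also changed for all genes in them. The share of all genes called lower was 6.29% without LARP7 replicate 1, 1.38% when LARP7 replicate 2 was dropped, 6.28% with IgG replicate 1 dropped and 6.32% with IgG replicate 2 dropped. In that order the share called higher was 9.7%, 4.62%, 12.2% and 15.2%.

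**Figure D1:**
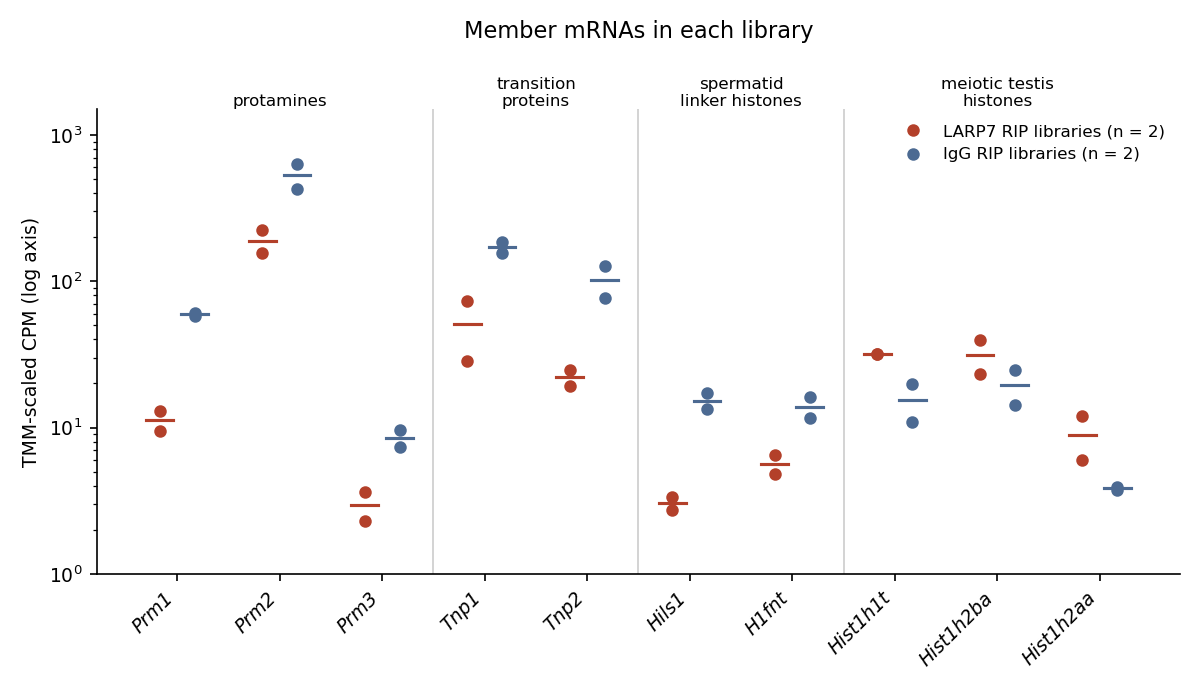
TMM-scaled CPM (counts per 1000000, log axis) of the 10 member mRNAs in each of the 2 LARP7 and 2 IgG libraries, grouped by role, with each point a library and each bar the group mean. LARP7 points lie below IgG points for the protamine, transition protein and linker histone mRNAs, lie above them for Hist1h1t and Hist1h2aa, and overlap them for Hist1h2ba.

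Among the protamine mRNAs, Prm1 had the lowest fold change. Protamine 1 is the small arginine-rich protein that, with protamine 2, packs the DNA of mouse sperm. Prm1 had 50 and 41 expected counts in the LARP7 libraries, against 782 and 368 in the IgG libraries. Both LARP7 libraries were low and the groups did not overlap. The level was 11.2 ± 2.53 CPM with LARP7 and 59.7 ± 2.03 CPM with IgG (SD, n = 2 each), a log2 fold change of -2.41 (SE 0.44, edgeR adjusted p = 0.00791). Of all genes tested, 3.67% had a lower fold change. With 1 library left out, the adjusted p lay between 0.00274 and 0.0207.

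Prm2, whose product is made as a precursor and cut to the mature protamine, had the most counts of any member. It had 856 and 678 counts in the LARP7 libraries, against 5481 and 4009 in the IgG libraries. The groups did not overlap, but the IgG libraries differed once scaled, at 428 and 634 CPM. The mean was 189 ± 47.3 CPM with LARP7 and 531 ± 146 CPM with IgG, and the log2 fold change of -1.49 (SE 0.62) missed the threshold with edgeR (adjusted p = 0.0993). DESeq2 gave -1.53 with an adjusted p of 0.00768. With 1 library left out, the log2 fold change from edgeR lay between -1.79 and -1.12.

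Prm3 encodes an acidic protein of spermatids that, despite its name and place in the cluster, is not a DNA-packing protamine. It had 14 and 10 counts with LARP7, against 95 and 61 with IgG, the groups again apart. Its log2 fold change was -1.52 (SE 0.53, edgeR adjusted p = 0.0568), and it was not called by DESeq2 either (-1.56, DESeq2 adjusted p = 0.171).

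The transition proteins bind DNA between the removal of histones and the arrival of protamines. Tnp2 had 95 and 84 counts in the LARP7 libraries, against 1626 and 482 in the IgG libraries. The LARP7 libraries were close to each other and the IgG libraries were not, with 22.0 ± 3.82 CPM with LARP7 and 102 ± 35.9 CPM with IgG. The log2 fold change was -2.21 (SE 0.51, edgeR adjusted p = 0.0154). The threshold was missed when LARP7 replicate 2 was left out (-2.04, adjusted p = 0.0612), and the adjusted p was 0.00572 to 0.0436 when each of the other 3 libraries was.

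Tnp1, the more abundant transition protein mRNA here, had 284 and 124 counts with LARP7, against 2371 and 991 with IgG. It averaged 51.1 ± 32.1 CPM with LARP7 and 171 ± 20.1 CPM with IgG, and here the LARP7 libraries were those that lay apart. The log2 fold change of -1.74 (SE 0.59) just missed the threshold with edgeR (adjusted p = 0.0535). It ran from -2.60 (adjusted p = 0.0389) without LARP7 replicate 1, the higher of the 2, to -1.21 (adjusted p = 0.331) without LARP7 replicate 2. DESeq2 gave -1.78 with an adjusted p of 0.00719.

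The linker histone mRNAs of spermatids sat with the late mRNAs. Hils1 encodes a divergent linker histone of elongating spermatids. It had 13 and 12 counts in the LARP7 libraries, against 221 and 84 in the IgG libraries, so its LARP7 level rests on few counts. The level was 3.07 ± 0.441 CPM with LARP7 and 15.3 ± 2.81 CPM with IgG, and the log2 fold change was -2.32 (SE 0.47, edgeR adjusted p = 0.0105). With 1 library left out, the adjusted p was 0.00298 to 0.0409. H1fnt encodes a linker histone found at the pole of the spermatid nucleus under the acrosome. It had 25 and 21 counts with LARP7, against 206 and 74 with IgG. The log2 fold change was -1.30 (SE 0.45, adjusted p = 0.0566 with edgeR) and -1.33 with DESeq2 (adjusted p = 0.157).

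The early histone mRNAs gave no calls. Hist1h1t encodes H1t, the linker histone of pachytene spermatocytes. It had 123 and 139 counts in the LARP7 libraries, against 255 and 69 in the IgG libraries. Scaled, the LARP7 libraries were nearly equal and the IgG libraries spread, at 31.9 ± 0.0429 CPM with LARP7 and 15.4 ± 6.37 CPM with IgG. The log2 fold change was 1.04 (SE 0.42, edgeR adjusted p = 0.0892).

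Hist1h2ba encodes the testis H2B variant TH2B, which replaces much of H2B in spermatocytes. It had 89.1 and 174 counts with LARP7, against 183 and 157 with IgG. The groups overlapped after scaling, with 31.5 ± 11.9 CPM with LARP7 and 19.6 ± 7.45 CPM with IgG, and the log2 fold change was 0.70 (SE 0.44, edgeR adjusted p = 0.264). Hist1h2aa encodes its partner TH2A. It had 22.7 and 51.9 counts with LARP7, against 47.7 and 25.0 with IgG. Both LARP7 libraries lay above the IgG libraries once scaled, replicate 1 less so than replicate 2, and the log2 fold change was 1.22 (SE 0.52, edgeR adjusted p = 0.105). The counts of this mRNA carried the largest assignment error among the members, a posterior SD of up to 4.97% of the count, against up to 2.51% for Hist1h2ba and under 1% for the other 8.

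The sign of the early mRNAs depends on the scaling. With library totals their log2 fold changes were -0.42 (Hist1h1t), -0.64 (Hist1h2ba) and -0.16 (Hist1h2aa), with 0 of 3 called. All 7 other members were called lower with library totals, where 47.1% of genes were lower and 3.95% higher. Relative to the all-gene median the sets kept their places under the scalings of counts given here. They did not with limma on log2(TPM + 0.1), a fit of the deposited levels per length. There the early median of -1.44 lay below the all-gene median of -1.25. The median log2 fold change was -1.74 for the late mRNAs, -1.81 for the linker histones and 1.04 for the early histones with TMM. With library totals the medians were -3.23, -3.26 and -0.42, beside an all-gene median of -1.47. Scaling by the total of protein-coding counts, chosen after seeing the data, also called these 7 members lower, against 12.7% of all genes (12.6% higher), with early values of 0.50 to 0.99.

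**Figure D2:**
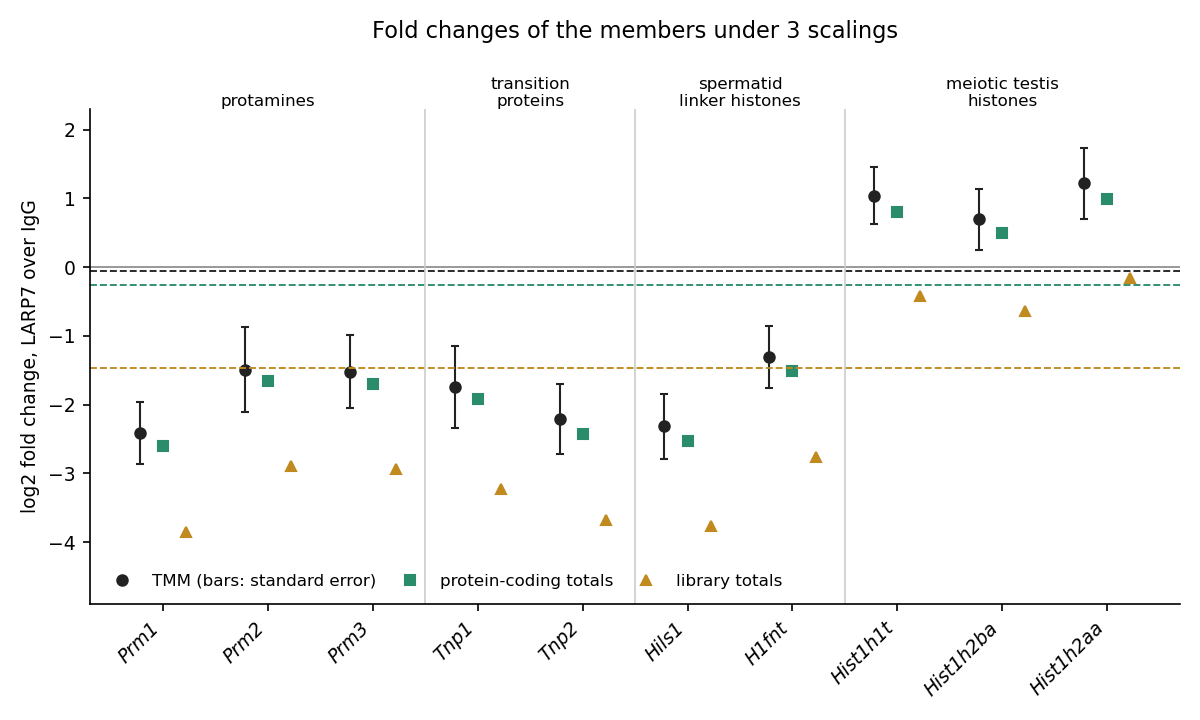
Log2 fold change, LARP7 over IgG, of the 10 members under 3 scalings (TMM, protein-coding totals and library totals), with the standard error as a bar for the TMM values and a dashed line at the all-gene median of each scaling. The late and linker histone mRNAs are negative under all 3 scalings, whereas the 3 early mRNAs are positive with TMM and protein-coding totals and negative with library totals.

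The ratio of late to early counts inside a library does not depend on how libraries are scaled to each other. It was 5.53 and 2.57 in the LARP7 libraries, against 21.3 and 23.5 in the IgG libraries. The LARP7 libraries were both low, differed from each other more than the IgG libraries did, and did not overlap them. On the log2 scale the ratio averaged 1.91 ± 0.782 with LARP7 and 4.49 ± 0.100 with IgG, a difference of -2.57, or 5.94-fold. The difference is given as a description with no test. An exact two-sided permutation test of 2 libraries against 2 cannot give a p below 0.333.

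The ratio was also low with LARP7 for each class taken alone. Protamine over early counts were 3.92 and 2.0 with LARP7, against 13.1 and 17.7 with IgG (log2 difference -2.44). Transition protein over early counts were 1.61 and 0.571 with LARP7, against 8.23 and 5.86 with IgG (-2.86). The transition proteins thus outnumbered the early mRNAs in 1 of 2 LARP7 libraries and in both IgG libraries. Linker histone over early counts were 0.162 and 0.0905 with LARP7, against 0.879 and 0.629 with IgG (-2.62). Late over linker histone counts overlapped between groups, at 34.2 and 28.4 with LARP7 and 24.3 and 37.4 with IgG (log2 difference 0.05).

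**Figure D3:**
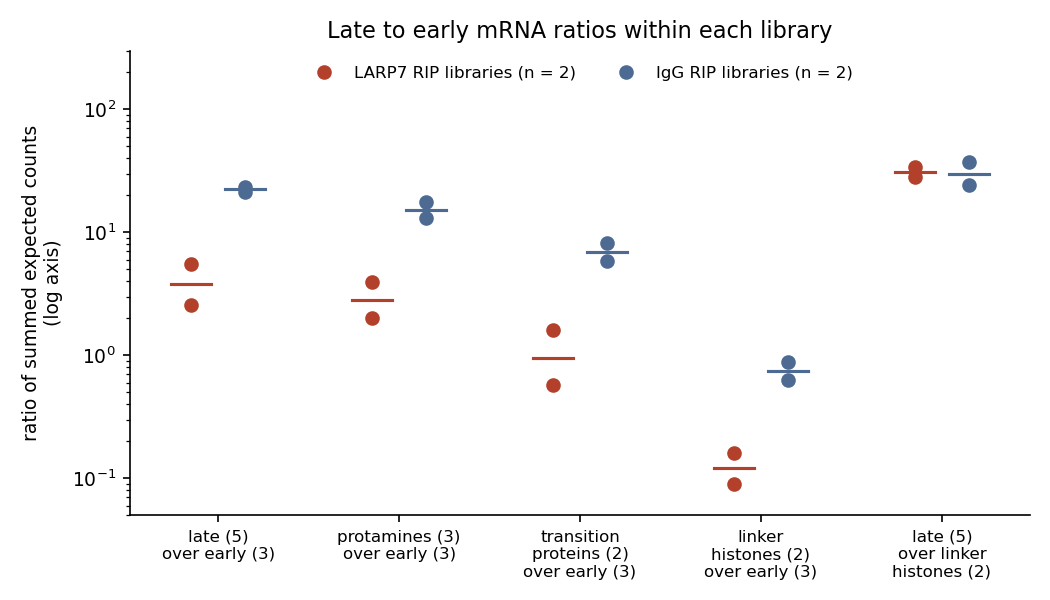
Ratios of summed expected counts within each library (log axis) for late, protamine, transition protein and linker histone mRNAs over the early histone mRNAs, and for late over linker histone mRNAs, with each point a library and each bar the geometric mean of 2. All 4 ratios over the early mRNAs are lower in both LARP7 libraries than in both IgG libraries, and the late over linker histone ratio overlaps.

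Within the classes, some ratios also separated the groups. Prm1 over Prm2 counts were 0.0584 and 0.0605 with LARP7, against 0.143 and 0.0918 with IgG. H1fnt over Hils1 counts were 1.92 and 1.75 with LARP7, against 0.932 and 0.881 with IgG, on 46 and 25 LARP7 counts. Prm3 over Prm2, Tnp2 over Tnp1 and Prm2 over Tnp1 overlapped between the groups, as did Hist1h2aa over Hist1h2ba and Hist1h1t over Hist1h2ba. None of these ratios was tested. With 2 libraries against 2, groups that do not differ would separate in either direction with a probability of 0.333.

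As a share of all counts, the 5 late mRNAs made up 0.0188% (exact 95% binomial interval 0.0178% to 0.0198%) and 0.0144% (0.0135% to 0.0154%) of the LARP7 libraries. In the IgG libraries they made up 0.148% (0.145% to 0.151%) and 0.134% (0.131% to 0.137%). The 3 early mRNAs made up 0.00339% (0.00298% to 0.00386%) and 0.00561% (0.00505% to 0.00622%) with LARP7, against 0.00694% (0.00634% to 0.00759%) and 0.00570% (0.00501% to 0.00644%) with IgG. LARP7 replicate 2 and IgG replicate 2 could not be told apart in that share. These intervals cover counting error only. Within protein-coding counts the early share lay the other way, at 0.0227% and 0.0275% with LARP7 and 0.0164% and 0.0149% with IgG, while the late share was 0.126% and 0.0707% with LARP7 and 0.350% in both IgG libraries.

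Levels per length, as the deposited TPM, rank the members differently in the groups. In the LARP7 libraries Prm2 stood first at 6.49 ± 1.62 TPM, above all others in both libraries. Tnp1 (2.39 TPM), Hist1h2ba (2.23), Hist1h1t (0.99), Tnp2 (0.895), Hist1h2aa (0.63) and Prm1 (0.54) followed, with ranges over the libraries that overlapped between neighbours. Compared inside each LARP7 library, Hist1h2ba lay above Hist1h1t, and Tnp2 above Hist1h2aa. Prm3 (0.165), then H1fnt (0.09) and Hils1 (0.08), were lowest. In the IgG libraries Prm2 also stood first at 114 ± 22.3 TPM, followed by Tnp1 (60.0), Tnp2 (28.9), Prm1 (18.9), Hist1h2ba (7.12), Hist1h1t (3.24), Prm3 (3.01), Hils1 (2.55), Hist1h2aa (1.49) and H1fnt (1.48). There the ranges of Prm2, Prm1 and Hist1h2ba over the libraries each lay wholly above that of the next in the order. The ranges of the other neighbours overlapped. Compared inside each IgG library, Tnp1 also lay above Tnp2, Tnp2 above Prm1, and Hils1 above Hist1h2aa. Hist1h2ba thus ranked above Tnp2 and Prm1 in mean TPM with LARP7 and below both with IgG. The early histones made up 16.5% and 32.9% of the summed TPM of the 10 members with LARP7, against 4.73% and 5.25% with IgG. Late mRNAs made up 82.4% and 65.9% with LARP7, against 93.4% and 93.5% with IgG.

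**Figure D4:**
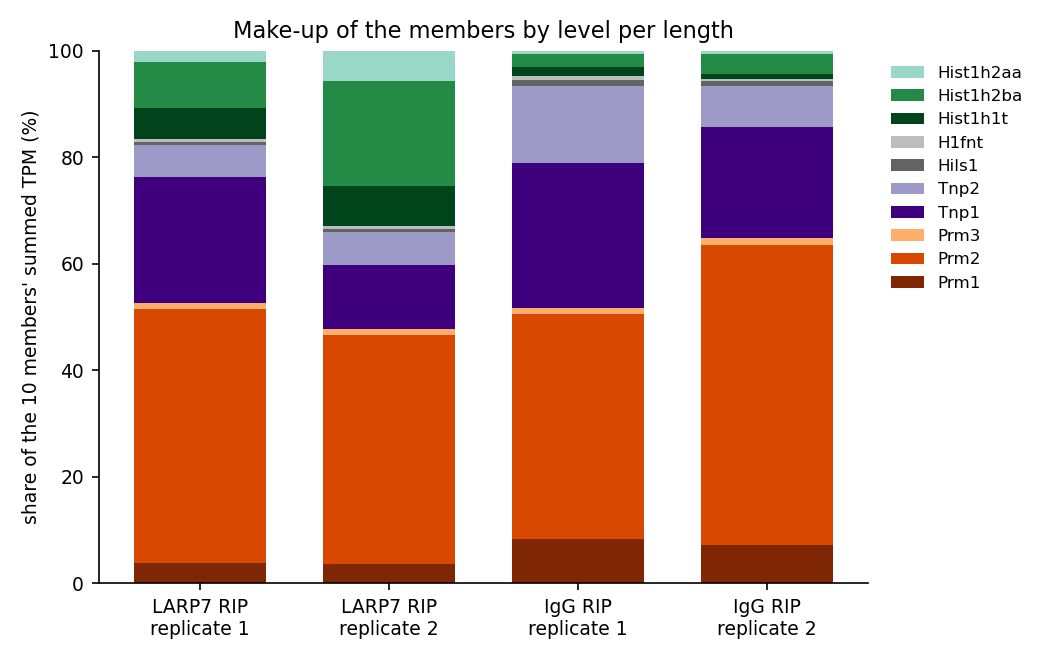
Share of the summed TPM of the 10 members taken by each member, in percent, for LARP7 replicates 1 and 2 and IgG replicates 1 and 2. The 3 early histone mRNAs take 16.5% and 32.9% in the LARP7 libraries and 4.73% and 5.25% in the IgG libraries.

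Other genes of the histone-to-protamine exchange were read from 3 lists, 46 genes in all. 44 were found in the files (H2bl1 and H3f4 were not matched by symbol) and 37 were tested. With LARP7, 11 of the 37 were lower and 0 were higher, against 9.69% lower and 14.5% higher among all genes. At an unadjusted p under 0.05, 18 were lower and 0 higher, against 18.2% lower and 20.9% higher among all genes. DESeq2 called 7 lower and 0 higher of 36. The count of calls was 5 when LARP7 replicate 1 was left out, 1 when LARP7 replicate 2 was, and 6 when either IgG replicate was, in fits where 1.38% to 6.32% of all genes were lower. Cenpa, the centromeric H3 variant, was not tested with all 4 libraries. It had 6 and 15 counts with LARP7, against 4 and 0 with IgG. Leaving out IgG replicate 1 sets it against a lone IgG library with 0 counts, so nothing is read from that fit for it.

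Of 20 chromatin and transcription genes, 7 were lower, and the list's median log2 fold change was -1.07. The 6 with the smallest p were Tssk6 (-1.46), a testis kinase needed for chromatin condensation, Phf7 (-1.93), a histone ubiquitin ligase of spermatids, Kdm3a (-1.24), the H3K9 demethylase that acts at Tnp1 and Prm1, Kat5 (-1.66), a histone acetyltransferase, Fhl5 (-1.96), a coactivator of CREM, and Cdyl (-1.30), a chromodomain protein. Phf7, the most abundant of these, had 232 and 159 counts with LARP7, against 2337 and 1177 with IgG. Crem itself was not called (-0.67, edgeR adjusted p = 0.284). Without LARP7 replicate 2, 0 of the 20 were called by edgeR, with 6 lower at an unadjusted p under 0.05, as were 9.34% of all genes in that fit. Without each of the other 3 libraries 2 were called.

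Of 9 genes for storage and translation of mRNA, 3 were lower, with a list median of -1.44. Ybx2 (-1.98) and Ybx3 (-2.01) encode Y-box proteins that bind and store mRNAs of spermatids, and Tarbp2 (-1.95) encodes a double-stranded RNA-binding protein linked to protamine mRNA translation. Ybx2 had 106 and 94 counts with LARP7, against 1347 and 560 with IgG. Over the fits that drop 1 library, the median of these 9 genes ranged from -1.46 (LARP7 replicate 1 dropped) to -1.19 (LARP7 replicate 2 dropped). Without LARP7 replicate 2, 0 of the 9 were called by edgeR, with 4 lower at an unadjusted p under 0.05. Of 17 other histone variants 8 were tested and 1, H2al1a, was lower (-3.22). H2al1a had 0 and 4 counts with LARP7, against 33 and 43 with IgG, so its fold change rests on a LARP7 level near the floor. Its counts are uncertain between near-identical copies, with a posterior SD of 12.84 on 32.62 counts in IgG replicate 1.

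The markers of elongating spermatids, which make the late proteins, shifted with the late mRNAs. 8 of 10 were lower with LARP7, against 9.69% of all genes tested. The median log2 fold change of these markers was -1.79, beside -1.74 for the late mRNAs and -0.05 for all genes. Tssk6 is in this list as well as among the chromatin genes. Their summed level was 1669 and 945 per 1000000 protein-coding counts with LARP7, against 5146 and 4341 with IgG. The median of these markers was -2.13 in the fit lacking LARP7 replicate 1 and -1.52 in the fit lacking LARP7 replicate 2. It was -1.69 in the fit lacking IgG replicate 1 and -1.81 in the fit lacking IgG replicate 2. Whether the markers were called depended on the library left out. Markers of round spermatids gave 2 of 7 lower (median -1.29) and a summed level of 149 and 89.0 on that scale with LARP7, against 382 and 355 with IgG.

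Spermatocyte markers, of the stage that makes the early histones, gave 1 of 9 lower, against 9.69% of all genes, and a median of -0.36. Their sums were 623 and 416 on that scale with LARP7, against 940 and 724 with IgG. A ratio of elongating spermatid to spermatocyte markers, added after seeing the data, was 2.68 and 2.27 with LARP7, against 5.47 and 6.00 with IgG. That log2 difference of -1.21 goes the same way as the late over early difference of -2.57 and is smaller. Spermatogonia markers gave 1 of 5 higher with TMM and 0 with library totals (median 0.57 with TMM). With TMM, Sertoli markers gave 1 of 5 lower (-1.22), Leydig markers 0 of 6 (-0.09), and peritubular, vascular and blood markers 0 of 2. Among all genes, 14.5% were higher and 9.69% lower. Library totals called 47.1% of all genes lower. They also called 10 of 10 elongating spermatid, 7 of 7 round spermatid and 7 of 9 spermatocyte markers lower. So were 1 of 5 spermatogonia, 5 of 5 Sertoli, 4 of 6 Leydig and 1 of 2 peritubular, vascular and blood markers. The part of cell type in the member fold changes was not tested.

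Histone models outside the members, taken as a list after seeing the data, are the 67 others with symbols of the histone clusters. Of 32 tested, 11 were higher with LARP7 and 0 lower, against 14.5% higher and 9.69% lower among all genes, with a median log2 fold change of 1.23, next to 1.04 for the early members. With library totals 5 were higher and 3 lower, against 3.95% and 47.1% of all genes, and the median was -0.11. Leaving out 1 library changed the number called higher to between 2 of 42 (without LARP7 replicate 2, 4.62% of all genes) and 22 of 44 (without IgG replicate 2, 15.2% of all genes).

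**Figure D5:**
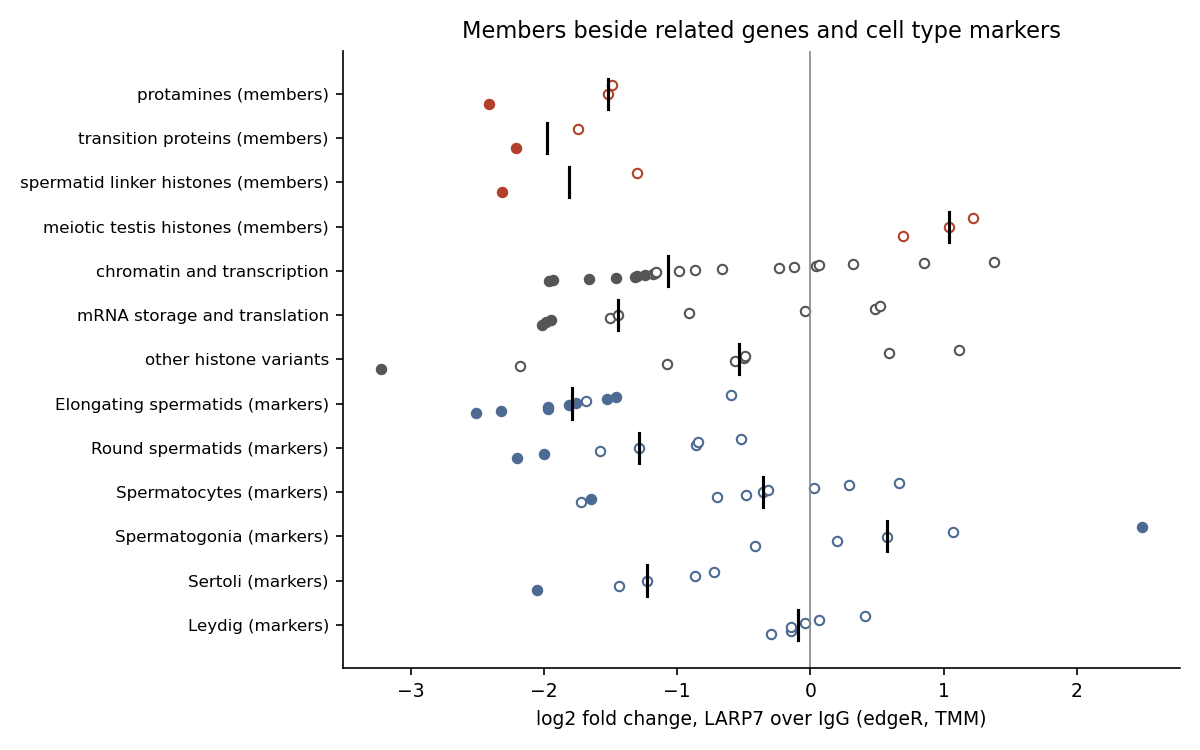
Log2 fold change, LARP7 over IgG (edgeR, TMM), of each tested gene in the member classes, the 3 lists of related genes and the cell type markers, with each point a gene (filled where called) and a bar at the list median. Elongating spermatid markers and late members lie to the left of 0, and the 3 early members lie to the right.

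The genes whose pattern over the 4 libraries was most like the late mRNAs were sought among 3665 genes with a mean of at least 10 CPM, by Euclidean distance of centred log2 CPM. The 5 nearest were Tsks, a substrate of testis kinases, Ubxn11, Ehd1, the mitochondrial glycine tRNA mt-Tg and Tekt2, a tektin of the sperm tail, at distances of 0.0390 to 0.0863. Tsks had 45 and 33 counts with LARP7, against 456 and 219 with IgG. The 5 nearest to the early mRNAs were Sepsecs, Isg20l2, Ppip5k1, Wdr24 and Cyld, at distances of 0.0751 to 0.136. Sepsecs, an enzyme of selenocysteine tRNA synthesis, had 41 and 71 counts with LARP7, against 88 and 45 with IgG. With 4 libraries and 1 contrast, many genes can share such a pattern.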

How the data were processed

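RNA recovered by LARP7 or IgG RIP from mouse testis was sequenced in 4 libraries. Per the submitters' processing notes, the authors used cutadapt, Bowtie2 and RSEM with mm10; their versions, settings and any use of strand are not stated in these sources. The deposited files give, per gene model, the expected count and the TPM of the authors (per length, scaled to one total), and a posterior SD of the estimated count.

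Expected counts were rounded and tested with edgeR 4.0.16 in R 4.3.3: filterByExpr, TMM, robust quasi-likelihood F tests, two-sided, Benjamini-Hochberg over 12234 genes. Standard errors were taken as log2 fold change over the root of the F statistic. CPM uses TMM-scaled library sizes. The procedure was run on simulated counts as a check of the code. These had the same dispersion for all genes and few changed genes, so they do not bear on the scaling or the calls here. TPM was tested only as an alternative, with limma 3.58.1 on log2(TPM + 1) and log2(TPM + 0.1); DESeq2 1.42.0, RLE factors, library totals, no filter, posterior mean counts, a replicate block and leaving out each library were the others. Ratios within a library use unrounded counts. Intervals are exact binomial at 95%.

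All members are named; of each list of related genes, every called gene up to the 6 with the smallest p. Members and lists were chosen with earlier results of these data known. Promoters and places come from RefSeq tables of GRCm38.p6, the assembly of mm10.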

Additional observations from a re-analysis of the deposited data

How the results depend on the processing

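The late minus early log2 difference lay between -2.91 and -2.44 under the alternatives of unit and members and between -3.12 and -2.02 with 1 library left out. Members called lower were 3 in the reported fit, 7 with library totals, 7 with protein-coding totals (added after seeing the data), 5 with DESeq2, 6 with posterior mean counts (11% of all genes lower), 7 with limma on log2(TPM + 0.1) (52.1% of all genes lower), and 0 with limma on log2(TPM + 1), where 7 had an unadjusted p under 0.05, as did 46.5% of all genes, and 0 of all 12234 genes were called. Leaving out 1 library gave 2 to 4 lower and 0 higher. The early mRNAs turned negative with library totals (Hist1h1t -0.42, Hist1h2ba -0.64, Hist1h2aa -0.16), with limma on log2(TPM + 1) (-0.97, -1.45 and -0.63 in the same order) and with limma on log2(TPM + 0.1) (-1.44, -1.88 and -1.30), all uncalled. TPM, like library totals, keeps the large non-coding share of the LARP7 libraries in its total, and the part of this in the signs was not tested. The early median was -1.44 with log2(TPM + 0.1) and -0.42 with library totals. The all-gene medians were -1.25 and -1.47 in that order. Related genes called lower were 11 in the reported fit, 29 with library totals, 7 with DESeq2, 0 with limma on log2(TPM + 1) (28 at an unadjusted p under 0.05), 27 with limma on log2(TPM + 0.1), and 1 to 6 with 1 library left out. Called higher were 0 to 1 with 1 library left out. The labels do not say that replicate numbers mark shared animals. Deviations of same-numbered libraries correlated at 0.20 over 12234 genes. With the replicate number as a block, 6 members were lower and 1 higher (Hist1h1t), and 17 related genes were lower, against 11.5% lower and 17.1% higher among all genes. Low depth limits Hils1 and Prm3, with 10 to 14 LARP7 counts.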
